A study of Mus musculus with 9 samples.

Results

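The comparison described here sets cells given rhWnt3a together with OSMI against cells given vehicle. Its members were taken by column name, the counts of rhWnt3aOSMI 1 to 3 against those of vehicle 1 to 3, over all genes. They are 6 of the 9 libraries of the series, and the 3 rhWnt3a libraries are read beside them, so that each gene has a value before OSMI was added. All groups are ST2 cells, an established mouse stromal line derived from bone marrow, labelled WT and mesenchymal stem cell, and all were kept for 72 h. One group received vehicle. Another received rhWnt3a, recombinant human Wnt3a, at 50 ng/ml. The group of interest received, by its titles, rhWnt3a and OSMI, an inhibitor of the enzyme O-GlcNAc transferase, at 20 µM. Its treatment label names OSMI without rhWnt3a, and its rhWnt3a dose is taken from the culture methods of the study. The sequencing methods of the study list vehicle, OSMI or rhWnt3a, while its results describe the combination, which is the reading used here. On this reading no group received OSMI without rhWnt3a. Effects of OSMI on the response to Wnt3a and on the cells whatever their Wnt state cannot be told apart.

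Wnt3a binds Frizzled and LRP receptors at the cell surface, which keeps beta-catenin from being degraded and lets TCF and LEF factors turn on target genes. Several of the targets, Axin2 among them, encode inhibitors that damp the pathway again. In stromal cells of the marrow, Wnt signalling is known to favour the bone-forming fate over cartilage and fat, and to raise glycolysis. O-GlcNAc transferase attaches a sugar made from glucose through the hexosamine pathway to serine and threonine residues of nuclear and cytoplasmic proteins, transcription factors and metabolic enzymes among them.

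Total counts were 16417002, 16591815 and 17583945 in the vehicle libraries, 16811833, 17393439 and 17061946 in the rhWnt3a libraries and 16135898, 17022987 and 16713202 in the rhWnt3aOSMI libraries. At that depth a gene with 0 counts in a library may still have a level of up to 0.17 to 0.191 CPM, the floor of 3 counts, which covers counting error only. In each group 1 library lay apart from the other pair. The mean squared log2 difference was 0.118 between vehicle 1 and 2 but 0.454 and 0.392 between each of them and vehicle 3. It was 0.111 between rhWnt3a 1 and 3 and 0.411 and 0.373 against rhWnt3a 2, and 0.119 between rhWnt3aOSMI 1 and 2 and 0.442 and 0.437 against rhWnt3aOSMI 3. Gene length moved with this difference. When the counts of a library were ordered by gene length, the middle count fell on a gene of 4557 bases in vehicle 3 and 4351 bases in rhWnt3a 2, on one of 6135 bases in rhWnt3aOSMI 3, and on genes of 5277 to 5453 bases in the other libraries. Ribosomal proteins, encoded by short genes, took 0.932% of the counts of rhWnt3aOSMI 3 and 2.94% and 2.97% in its group. The vehicle library that lay apart leaned to short genes and the rhWnt3aOSMI library to long ones, so gene length is partly aligned with the comparison, and fits that remove a trend on length and GC or model the length profile are among the alternatives. Results are therefore also given from a fit without these 3 libraries, which leaves a pair of libraries in each group, and are called below the values of the closest pairs. Because the library furthest from the others was taken out of each group, the spread in that fit is small by selection, its p-values are too small, and its larger numbers of calls are no support for a result.

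**Figure D1:**
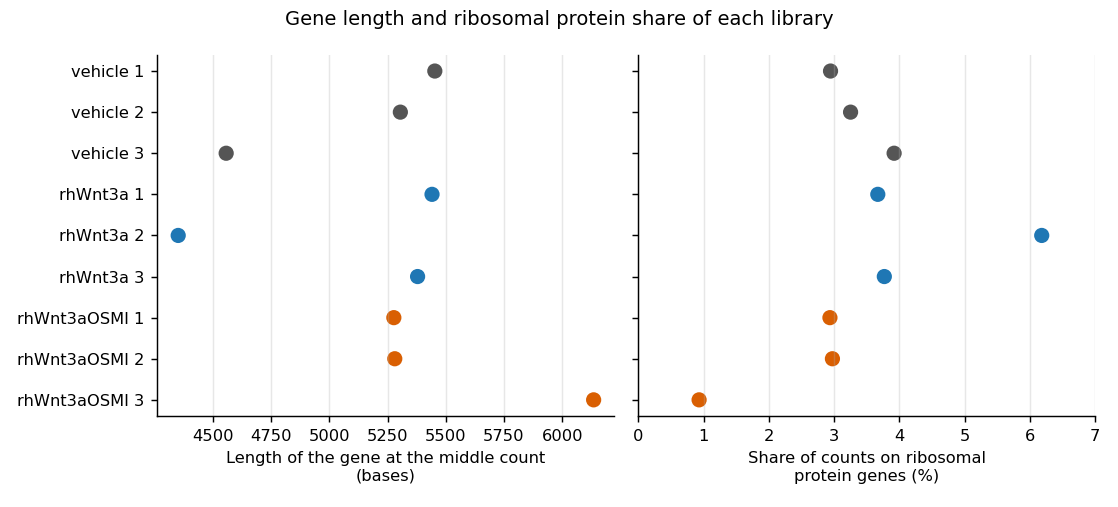
For each of the 9 libraries, the left panel gives the length in bases of the gene that holds the middle count when counts are ordered by gene length, and the right panel the percentage of counts on ribosomal protein genes. Vehicle 3 and rhWnt3a 2 lie toward short genes and rhWnt3aOSMI 3 toward long ones, at 6135 bases and 0.932%.

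The libraries held part of the stromal RNA that the labels lead one to look for. Of 15 markers of marrow stromal cells, 12 passed the filter on low counts. In the vehicle group the mean level per length was 1514 FPKM for Col1a1, a chain of type I collagen, 378 for the integrin subunit Itgb1 and 158 for the growth factor receptor Pdgfrb. Lepr, Thy1 and Nes, markers of some marrow stromal populations, had at most 4 counts in any library. Eng and Nt5e, also on the list, passed the filter but were low, at 0.348 and 0.451 FPKM with vehicle. Several defining markers of other cells were at or near 0: Ptprc had at most 2 counts and Itgam and Cd3e had 0, the endothelial genes Cdh5, Kdr and Tie1 had at most 1, each of the 7 epithelial markers had at most 3, and the muscle genes Myod1, Myf5 and Ckm had 0. Other genes of the leukocyte and endothelial lists were present at low levels: the highest counts in any library were 160 for Lyz2, 153 for Cd14, 30 for Cd68, 51 for Vwf and 34 for Emcn. Some of these moved with treatment. Emcn had 19, 34 and 22 counts with vehicle and 0, 2 and 0 with rhWnt3aOSMI, and was called lower in each alternative. Lyz2 was called lower and Vwf higher, but Lyz2 not without any single vehicle library, rhWnt3a 1, rhWnt3a 3 or rhWnt3aOSMI 2, and Vwf not without any single library but rhWnt3a 2. Of the 12 tested stromal markers, 5 were called lower with the combined treatment and 2 higher (1 without vehicle 1 or 2, rhWnt3a 3 or any single rhWnt3aOSMI library). The rises were the transcription factors Prrx1 and Twist1, at 0.82 and 0.69. Ly6a, a surface antigen of progenitor cells, had 763, 927 and 841 counts with vehicle, 267, 385 and 251 with rhWnt3a and 107, 92 and 73 with rhWnt3aOSMI, and Nt5e, the ectonucleotidase CD73, had 76, 56 and 63, then 72, 80 and 78, then 15, 14 and 22. Both sets of rhWnt3aOSMI counts lie below every vehicle library and every rhWnt3a library. In bulk RNA, fewer cells of a kind and less RNA per cell cannot be told apart, here or in the results that follow.

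Of 14004 genes tested, 1986 (14.2%) were called between rhWnt3aOSMI and vehicle at an adjusted p below 0.05 and a log2 fold change beyond 0.5, with 678 higher (4.84%) and 1308 lower (9.34%). Between rhWnt3a and vehicle 1230 were called (8.78%), 409 higher (2.92%) and 821 lower (5.86%). The direct comparison of rhWnt3aOSMI with rhWnt3a, which tests whether the changes from vehicle differ, called 664 (4.74%), 237 higher (1.69%) and 427 lower (3.05%). The first and second of these comparisons share the vehicle libraries, so their values are set side by side and no overlap of their calls is given. Most genes stayed close to vehicle: for 8069 (57.6%) the 95% interval of the change under combined treatment lay inside a log2 fold change of 1 in either direction, which is the meaning of "near vehicle" below. The sample labels do not say whether the libraries of a group came from separate cultures, so each p measures the spread between these samples.

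The number of calls depended on the libraries. It fell to 1218 without vehicle 1, 1237 without vehicle 2 and 1308 without rhWnt3aOSMI 1, and rose to 3351 in the closest pairs, which kept 1770 of the 1986 genes. Between rhWnt3a and vehicle it was 761, 717, 716 and 724 without vehicle 1, vehicle 2, rhWnt3a 1 and rhWnt3a 3 in turn, and 2557 in the closest pairs. For rhWnt3aOSMI against rhWnt3a it was 370 without vehicle 2, 277, 280 and 217 without rhWnt3a 1, 2 and 3, 240 and 203 without rhWnt3aOSMI 1 and 2, and 1789 in the closest pairs. Scaling mattered for the split of the calls: 34.1% of the genes called against vehicle were higher with TMM scaling and 44.8% (958 of 2138) with library totals alone. For rhWnt3aOSMI against rhWnt3a the share was 35.7% and then 48.2%. The excess of falls over rises was thus smaller with totals alone but did not turn round.

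Many of the 29 program lists fell into 4 kinds. Wnt targets, cartilage genes, interferon genes, cholesterol synthesis, chemokines and contractile genes had medians on the same side of vehicle with and without OSMI. Small leucine-rich proteoglycans, collagens, bone matrix proteins and annexins had medians further from vehicle with OSMI than without. Of the targets of NRF2 more were called higher in the combined treatment than in rhWnt3a. Some genes of mitosis, glycolysis and the hypoxia response were called against vehicle with rhWnt3a and not with OSMI.

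**Figure D2:**
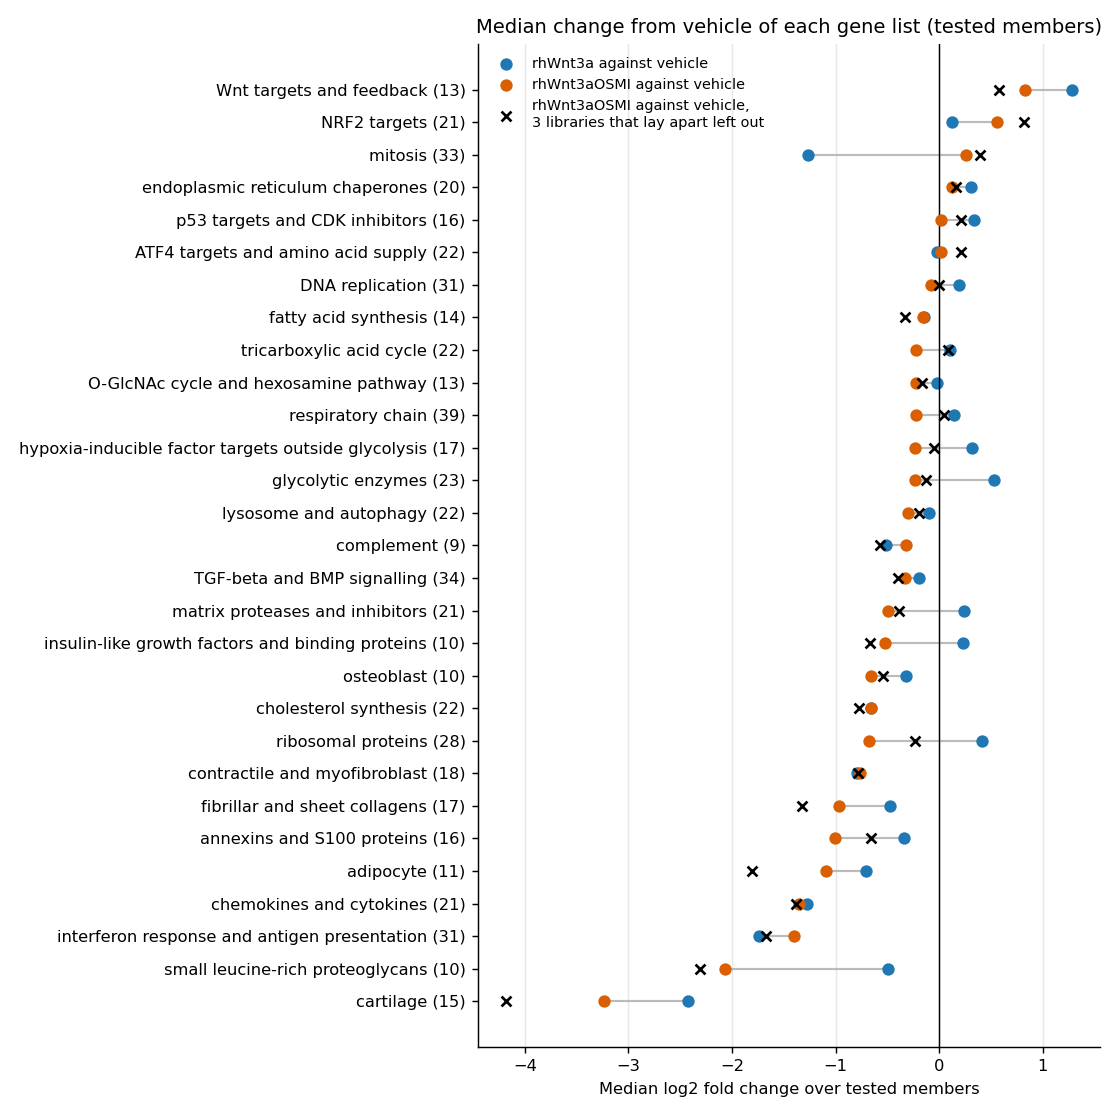
Median log2 fold change from vehicle over the tested members of each list (number of members in brackets), for rhWnt3a in blue and rhWnt3aOSMI in orange, with crosses for rhWnt3aOSMI in the closest pairs of libraries. Mitosis moves from −1.27 to 0.26, while cartilage stays far below 0 in both, at −2.42 and −3.24.

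Part of the response to Wnt stayed on. Axin2, a scaffold of the complex that degrades beta-catenin and a target of that same protein, had 4, 14 and 10 counts with vehicle, 355, 296 and 315 with rhWnt3a and 203, 185 and 297 with rhWnt3aOSMI. Each treated library lies far above each vehicle library, while rhWnt3aOSMI 3 reaches past the lowest rhWnt3a library. The log2 fold change from vehicle was 4.55 (SE 0.38, adjusted p 4.78e-05) with OSMI and 5.06 without, and the direct comparison gave −0.51 with an adjusted p of 0.28. Nkd2, an inhibitor that binds Dishevelled, rose by 1.19 with OSMI and 1.31 without. Of the 20 genes of the Wnt list 13 were tested, 5 were called higher with the combined treatment and 5 with rhWnt3a, and the medians were 0.82 and 1.28. Lgr5, a receptor that strengthens Wnt signals, was called lower at −0.99, a call that the list no longer held without vehicle 1 or 2, rhWnt3a 1, or rhWnt3aOSMI 1 or 2. The 7 others had too few counts, Nkd1 with at most 3, Rnf43 with at most 5 and Dkk1 with at most 2. Wif1, the highest of them, had 2, 0 and 5 counts, then 10, 7 and 7 with rhWnt3a, then 0, 2 and 0 with rhWnt3aOSMI.

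Some targets stood nearer to vehicle. Tnfrsf19, a receptor of the tumour necrosis factor family, had 3, 2 and 1 counts with vehicle, 98, 104 and 86 with rhWnt3a and 15, 13 and 30 with rhWnt3aOSMI. The 3 groups are separate, with the combined treatment in between. Its ratio to vehicle was 9.41 (95% counting interval 4.07 to 26.7), and against rhWnt3a it fell by 2.31 on the log2 scale (adjusted p 0.00582), the Wnt list's only call there. Lef1, one of the transcription factors that carry the signal, had 7, 6 and 13 counts, then 44, 39 and 46, then 13, 10 and 28. Its rhWnt3aOSMI counts overlap those of vehicle and lie below rhWnt3a. Its log2 fold changes were 0.93 with OSMI, not called, and 2.28 without. The antisense gene Gm43352 overlaps 13.7% of its exon bases. In the closest pairs 6 members of the list were lower with OSMI than without, and 4 without rhWnt3aOSMI 3: the 6 were Axin2, Notum, Apcdd1, Lef1, Lgr5 and Tnfrsf19, at −0.83, −2.78, −1.89, −1.99, −0.59 and −2.74. Other fits also called members higher with OSMI than with rhWnt3a: 2 without vehicle 3, 2 with DESeq2, and 3 at an unadjusted p, beside 4 lower there.

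The promoter of Tnfrsf19 is printed because the gene is the list's clearest intermediate. RefSeq gives 2 starts for this gene, and the window is the 250 bases before the inner one, inside the span of the gene. It lies at chr14:61037988-61038237 on the minus strand of GRCm38.p6, with the capitals marking CTTTGAT, the core that TCF and LEF bind, found on the opposite strand and beginning 202 bases before that start.
Tnfrsf19: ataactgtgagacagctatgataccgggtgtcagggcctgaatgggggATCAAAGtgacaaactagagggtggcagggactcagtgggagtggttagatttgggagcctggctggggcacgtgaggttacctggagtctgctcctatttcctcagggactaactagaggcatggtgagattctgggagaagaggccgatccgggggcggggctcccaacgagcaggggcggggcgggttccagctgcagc
Of the tested members of the Wnt list 6 had a promoter in the reference, and 1 of them (16.7%) held CTTTGAT on either strand, beside 3.72% of 27025 genes. A match is a description of the letters and not a bound site.

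Cartilage genes stayed far below vehicle. Cnmd, which encodes the cartilage protein chondromodulin, had 2144, 2089 and 2147 counts with vehicle, 11, 8 and 0 with rhWnt3a and 11, 10 and 6 with rhWnt3aOSMI. The treated libraries lie together near the floor, and the log2 fold change with OSMI was −7.91 (SE 0.47, adjusted p 9.17e-06). Ucma, another matrix protein of cartilage, had 300, 321 and 232 counts with vehicle and 0, 0 and 1 with the combined treatment, so that it fell by 876.5-fold with a counting interval of 156.9 to 34658. Of the 25 genes of the cartilage list 15 were tested, and 13 were called lower with OSMI and 13 without, with medians of −3.24 and −2.42. Leaving out any single library gave 11 to 13 lower with OSMI, and the closest pairs gave 13 at a median of −4.18. With the members at or under 3 counts set at the floor the medians were the same. Sox9, the lead transcription factor of cartilage, had 3061, 3463 and 2843 counts, then 1692, 1387 and 1703, then 1104, 1304 and 2023. Its fall of −1.13 (adjusted p 0.00852) was well short of that of its targets, such as the type II collagen gene Col2a1 at −4.00, and was not called without rhWnt3aOSMI 2.

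Genes of the interferon response and of antigen presentation also stayed below vehicle. Isg15, a ubiquitin-like protein that interferon induces, had 1523, 1758 and 1557 counts with vehicle, 199, 371 and 311 with rhWnt3a and 235, 246 and 350 with rhWnt3aOSMI. The treated groups overlap each other and lie below every vehicle library. The log2 fold changes were −2.59 with OSMI (SE 0.22, adjusted p 0.000118) and −2.50 without. Usp18, the protease that removes Isg15 from proteins, fell by 2.55 and 2.48 on the log2 scale. Of the 31 members, all tested, 25 were called lower with OSMI, 27 without, and the medians were −1.40 and −1.74. The first of these counts was 16 without rhWnt3aOSMI 1 and at most 27 without any other library, and it was 29 in the closest pairs. Antigen presentation took part: 7 of its 9 members were called lower, among them H2-K1 and H2-D1, class I heavy chains, at −1.69 and −1.03, B2m, their light chain, at −1.23 and the proteasome subunit Psmb9 at −2.18.

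The direct comparison with rhWnt3a called 1 member of this list, higher. Ifit3, an interferon-induced protein that limits viral RNA, had 4960, 5225 and 4063 counts with vehicle, 229, 313 and 405 with rhWnt3a and 755, 887 and 1347 with rhWnt3aOSMI. All 3 groups are apart, and the direct comparison gave 1.65 (adjusted p 0.00946); Ifit3b shares 97.4% of its transcript at near identity, so counts of the pair may be mixed. Without vehicle 1, vehicle 3 or rhWnt3a 2 in turn, 2 members were called higher than in rhWnt3a, and so were 3 with DESeq2, 7 with no filter and 5 in the closest pairs, where 2 were lower. Rsad2, the antiviral protein viperin, had a wide spread in the combined treatment, with 135, 99 and 107 counts, then 8, 12 and 18, then 3, 2 and 38. Its log2 fold change with OSMI was −3.02 in all libraries and −5.60 in the closest pairs, and the call was lost without vehicle 1, vehicle 2, rhWnt3aOSMI 1 or rhWnt3aOSMI 2.

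The promoters of Isg15 and Rsad2 are printed because members of this list moved together. The capitals mark GAAANNGAA, the core of the interferon-stimulated response element, on either strand. The search for it was added after the values were seen. The windows end at the gene start on the minus strand of GRCm38.p6 and are chr4:156200819-156201068 for Isg15, whose 3 overlapping matches begin 78, 72 and 66 bases before the start, and chr12:26456453-26456702 for Rsad2, with a match 119 bases before it.
Isg15: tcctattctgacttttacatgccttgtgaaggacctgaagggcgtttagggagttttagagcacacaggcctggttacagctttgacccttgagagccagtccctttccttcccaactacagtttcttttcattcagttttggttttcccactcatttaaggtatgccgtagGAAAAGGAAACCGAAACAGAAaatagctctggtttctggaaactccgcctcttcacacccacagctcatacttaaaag
Rsad2: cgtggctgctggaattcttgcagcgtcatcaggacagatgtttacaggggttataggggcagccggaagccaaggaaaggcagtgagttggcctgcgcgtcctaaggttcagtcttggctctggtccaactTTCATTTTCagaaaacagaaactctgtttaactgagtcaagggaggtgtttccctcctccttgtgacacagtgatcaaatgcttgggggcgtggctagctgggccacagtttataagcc
Of 25 members with a promoter in the reference 11 held the motif (44%), beside 8.18% of 27025 genes.

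**Figure D3:**
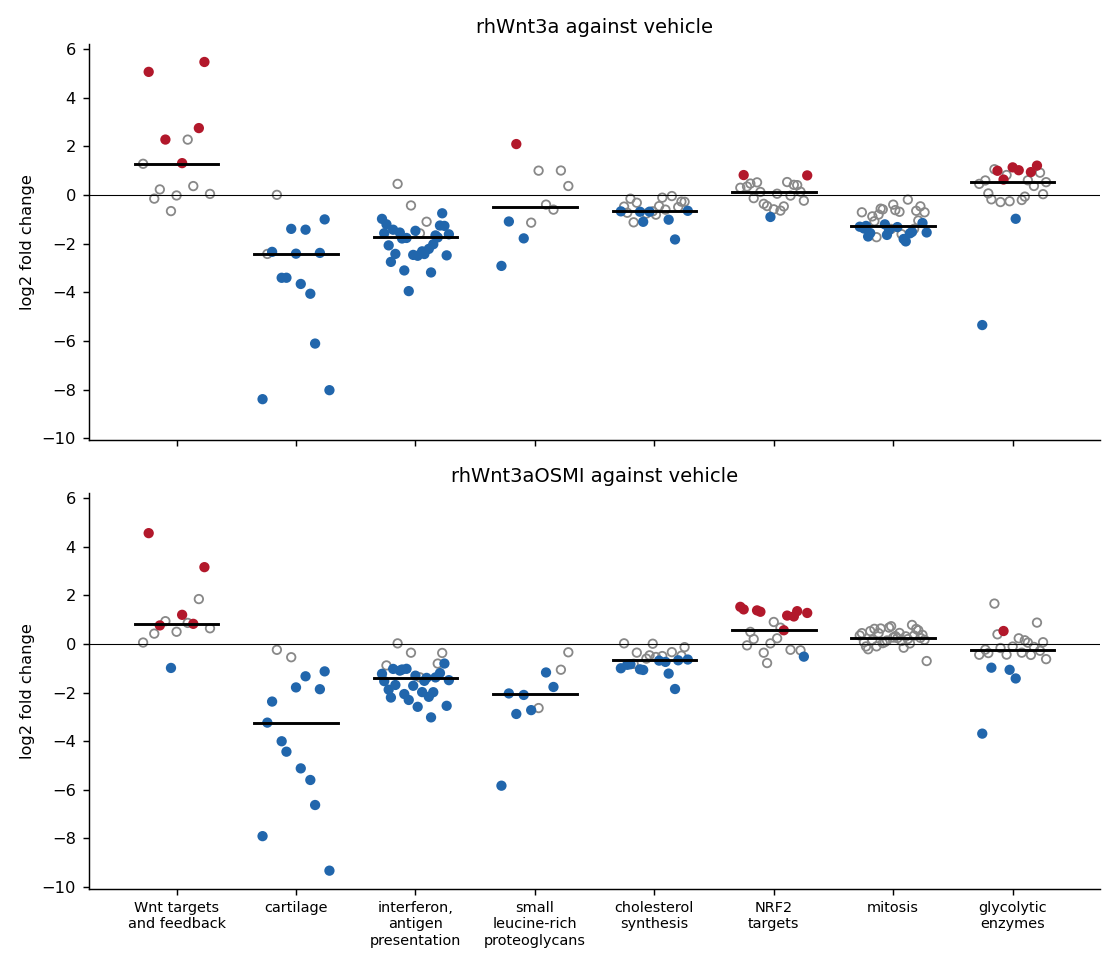
Each point is the fitted log2 fold change from vehicle of a tested member of 8 lists, for rhWnt3a above and rhWnt3aOSMI below. Filled points are called higher (red) or lower (blue), open points are not called, and black lines are medians; fitted values of members with 3 or fewer counts in a group, such as Ucma, are not bounds. Mitosis genes lie below 0 with rhWnt3a and around 0 with OSMI, while cartilage and interferon genes stay below it.

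Several genes of cholesterol synthesis stayed below vehicle. Nsdhl, an enzyme that removes methyl groups from sterol precursors, had 913, 702 and 611 counts with vehicle, 346, 437 and 349 with rhWnt3a and 317, 403 and 267 with rhWnt3aOSMI. The treated groups overlap and lie below vehicle, at −1.22 with OSMI (adjusted p 0.0035) and −1.01 without. Of 22 members 11 were called lower with OSMI and 7 without, 7 were near vehicle with OSMI, and both medians were −0.66. The first count fell to 5 without vehicle 1 or vehicle 2, 6 without rhWnt3aOSMI 1 and 7 without rhWnt3a 1, and rose to 21 in the closest pairs. The second was 3 without vehicle 1, 2 without vehicle 2, rhWnt3a 1 or rhWnt3a 3, and 13 without vehicle 3. In fatty acid synthesis 3 of 14 members were called lower, Scd1, Elovl6 and Acss2, and without vehicle 1, vehicle 2, rhWnt3aOSMI 1 or rhWnt3aOSMI 2 none was, beside 4 of the 14 at an unadjusted p below 0.05 in edgeR and 4 by DESeq2.

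Secreted signals to blood cells stayed low, with exceptions. Cxcl12, the chemokine that holds blood stem cells in the marrow, had 22899, 20770 and 22054 counts with vehicle, 4511, 4319 and 4659 with rhWnt3a and 5839, 6645 and 5826 with rhWnt3aOSMI. All 3 groups are separate, and both treated groups lie far below vehicle, at −1.89 with OSMI (adjusted p 2.98e-05) and −2.31 without. Kitl, the stem cell factor, fell by 1.59 on the log2 scale and Ccl2, which draws monocytes, by 2.16. Of 21 tested members of the chemokine and cytokine list 11 were called lower and 2 higher with OSMI, against 11 and 1 without, and leaving out single libraries gave 10 to 12 lower. The rises were Lif, a cytokine of the interleukin 6 family, at 1.03 with OSMI and 1.95 without, and Csf1, the growth factor of macrophages. Csf1 was at 526, 658 and 851 CPM with vehicle, 670, 552 and 664 with rhWnt3a and 1637, 1438 and 1705 with rhWnt3aOSMI. Its rhWnt3aOSMI libraries lie above the rest, which makes it a change of the combined treatment only among these groups, at 1.23 from vehicle and 1.34 from rhWnt3a.

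Contractile and fat cell genes also stayed below vehicle. Acta2, smooth muscle actin, was at 2231, 2624 and 2631 CPM with vehicle, 506, 670 and 480 with rhWnt3a and 1174, 1163 and 583 with rhWnt3aOSMI. The treated groups lie below vehicle and overlap through rhWnt3aOSMI 3. Of 18 members of the contractile list 11 were called lower with OSMI (7 without vehicle 2 or without rhWnt3aOSMI 1) and 9 without it, at medians of −0.76 and −0.80. Of the 11 contractile genes proper 9 were called lower, and their median was −1.21. The other 7, targets of YAP and TEAD, had a median of 0.07, with Ctgf and Ankrd1 called lower and Cyr61 higher at 0.72. The list held no higher call without vehicle 1 or 2, and 2 without vehicle 3, rhWnt3a 1, rhWnt3a 2 or rhWnt3aOSMI 2. Lmod1, which starts actin filaments in muscle, had 333, 334 and 281 counts, then 52, 70 and 61, then 173, 166 and 231, so the combined treatment stood between the others. It was called higher than in rhWnt3a (1.63), and lower than vehicle (−0.78) except without vehicle 1 or 2 or rhWnt3aOSMI 1 or 2. Des, the filament protein desmin, was lower only with OSMI, with 47, 41 and 63 counts, then 46, 63 and 56, then 7, 10 and 8. Pparg, the lead regulator of fat cells, was at 21.7, 23.4 and 26.9 CPM with vehicle, 7.23, 7.67 and 6.81 with rhWnt3a and 12, 11.1 and 10.6 with rhWnt3aOSMI, 3 separate levels. Of the 11 tested fat cell genes 6 were called lower with OSMI and 4 without, among them Fabp4, a fatty acid carrier, at −3.55 and −2.49. Single libraries left out gave 4 to 6 and 3 to 4.

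The small leucine-rich proteoglycans, which space collagen fibrils in the matrix, lay much further from vehicle when OSMI was present. Decorin, Dcn, had 186, 125 and 203 counts with vehicle, 666, 851 and 715 with rhWnt3a and 21, 27 and 23 with rhWnt3aOSMI. The 3 groups are far apart, and the direction turned round: 2.09 with rhWnt3a, −2.88 (SE 0.20, adjusted p 2.63e-05) with rhWnt3aOSMI, and −4.98 between them (adjusted p 5.94e-06). Bgn, biglycan, the list's most abundant member, was at 3731, 4356 and 3174 CPM, then 1867, 1612 and 1816, then 810, 851 and 1081, a fall in steps. Aspn, asporin, had 180, 150 and 73 counts with vehicle and 3, 3 and 1 with rhWnt3aOSMI, so it fell by 59.2-fold with a counting interval of 28.4 to 148. Of 10 tested members of the list 7 were called lower with OSMI and 3 without, at medians of −2.07 and −0.50, and with single libraries left out the first count was 6 to 8. In the closest pairs it was 10. Against rhWnt3a 5 were lower, a count that fell to 3 without vehicle 1 or 2, to 1 without rhWnt3a 1, rhWnt3a 3 or rhWnt3aOSMI 1 and to 2 without rhWnt3a 2 or rhWnt3aOSMI 2.

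Collagens followed, less evenly. Col3a1, the type III collagen chain, had 39517, 39655 and 45893 counts with vehicle, 35259, 39030 and 36591 with rhWnt3a and 6026, 5528 and 16558 with rhWnt3aOSMI. The vehicle and rhWnt3a groups are close to each other, the combined treatment is below both, and rhWnt3aOSMI 3, the library toward long genes, is the highest of its group. The log2 fold change from vehicle was −2.19 (adjusted p 0.00369), and −2.90 in the closest pairs. Of 17 tested collagen chains 9 were called lower with OSMI and 3 without, at medians of −0.97 and −0.47. The first count depended on the libraries: 4 without vehicle 1 or vehicle 2, 3 without rhWnt3aOSMI 1 or rhWnt3aOSMI 2, and 15 in the closest pairs, and the second fell to 1 without any single library but vehicle 3, rhWnt3aOSMI 2 and rhWnt3aOSMI 3. The basement membrane chain Col4a1 moved with Wnt and not further, at −1.02 with OSMI and −1.22 without. Its call with OSMI against vehicle was lost without vehicle 1 or 2 or rhWnt3aOSMI 1 or 2. Against rhWnt3a 3 of the 17 chains were called lower, 9 without rhWnt3aOSMI 3 and 12 in the closest pairs. That count was 1 without vehicle 1 or 2, and edgeR called 0 without any single rhWnt3a library or without rhWnt3aOSMI 1 or 2, beside 6 with an unadjusted p and 3 by DESeq2 in all libraries. Col8a1, a short network collagen, was the only chain called higher, at 1.22 and 1.21.

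Bone matrix proteins lay lower with OSMI than without, while the regulators did not. Postn, periostin, an adhesive protein of bone and tendon matrix, had 92807, 92060 and 85843 counts with vehicle, 45536, 52447 and 45720 with rhWnt3a and 9906, 11370 and 22835 with rhWnt3aOSMI. No groups overlap, and the log2 fold changes from vehicle were −2.67 with OSMI (SE 0.28, adjusted p 0.000402) and −0.95 without. Sparc, which binds collagen and mineral, had 55457, 60876 and 53472 counts, then 44032, 46558 and 46295, then 16934, 17350 and 18184. Its groups are separate too, the combined treatment far below the rest, at −1.74 (adjusted p 0.000111), and the direct comparison gave −1.39 (adjusted p 0.00182). Enpp1, which makes the mineral inhibitor pyrophosphate, was at −1.42 and Spp1, osteopontin, at −1.46. Runx2, the lead transcription factor of bone, had 904, 909 and 787 counts, then 1024, 799 and 1061, then 1101, 1230 and 1644, above vehicle in each rhWnt3aOSMI library at 0.56, which was not called (adjusted p 0.0758). Of 10 tested genes of the bone list 4 were called lower with OSMI, in the full set and without any single library. Against rhWnt3a 3 were called lower, 1 without rhWnt3aOSMI 1 or rhWnt3aOSMI 2 and 5 in the closest pairs. Of 10 listed genes too low to test, Alpl, Bglap and Bglap2, late markers of bone cells, had at most 6, 8 and 9 counts and Sp7 at most 2, so late bone formation could not be read at this depth.

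Other secreted and calcium-binding proteins fell too. Anxa8, a membrane-binding annexin, had 141, 161 and 197 counts with vehicle, 47, 48 and 67 with rhWnt3a and 3 in each rhWnt3aOSMI library, so that it fell by 57-fold with a counting interval of 29.8 to 125. S100b, a calcium-binding protein, had 157, 142 and 137, then 72, 125 and 86, then 11, 20 and 14. For both genes the rhWnt3aOSMI libraries lie below all others. Of 16 annexin and S100 genes 8 were called lower with OSMI, 5 without vehicle 1 or without vehicle 2, and 4 without OSMI. Against rhWnt3a 2 were called lower, and 5 in the closest pairs. Igf1, the growth factor, had 5703, 4285 and 2986 counts, then 2973, 3083 and 3293, then 509, 750 and 1343, with vehicle and rhWnt3a overlapping and the combined treatment below them at −2.38 (adjusted p 0.00174). Pappa, the protease that frees Igf1 from its binding proteins, was at −2.16. In that list 2 of 10 tested genes were called lower, 4 without rhWnt3aOSMI 3 and 5 in the closest pairs, and the receptor gene Igf1r was called higher at 0.87, except without any single library but rhWnt3a 2. The shares were 20% lower and 10% higher, beside 9.34% and 4.84% of all genes.

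Matrix proteases split. Mmp2, a gelatinase, had 68235, 74490 and 71728 counts with vehicle, 31133, 33460 and 32533 with rhWnt3a and 12502, 11630 and 19153 with rhWnt3aOSMI. The groups step down without overlap, at −1.18 and then −2.35 (adjusted p 0.000115). Mmp3, the protease stromelysin, went up and came back, with 48, 44 and 70 counts, then 195, 296 and 264, then 73, 48 and 51: the outer groups overlap, at 0.06 with an interval of −0.50 to 0.62. Timp3, an inhibitor of these enzymes bound to matrix, stayed up with 19701, 28645 and 33713 counts, then 140942, 85709 and 135406, then 174971, 193941 and 154872, at 2.13 and 2.64, although the antisense gene Syn3 overlaps 21.3% of its exon bases and the strand setting of the counting is not given. Of 21 tested proteases and inhibitors 4 were called lower and 1 higher with OSMI, 7 lower without rhWnt3aOSMI 3, and 2 lower and 4 higher without OSMI. With OSMI the shares were 19% lower and 4.76% higher, beside 9.34% and 4.84% of all genes, so the higher share is that of all genes. In the TGF-beta and BMP list 9 of 34 were lower (26.5%) and 2 higher (5.88%) with OSMI, against 9 and 4 without. Bmpr1b, a BMP receptor, had 44, 43 and 42 counts, then 20, 13 and 19, then 3, 3 and 6, at −3.43, while Inhbb, an activin subunit, stayed up at 1.61 after 2.79. With rhWnt3a 1 or rhWnt3a 3 left out, 5 members of that list rather than 9 were lower in rhWnt3a.

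Some targets of NRF2, the transcription factor that answers oxidative and electrophilic stress, rose with the combined treatment. Gclc, the catalytic subunit of the enzyme that begins glutathione synthesis, had 1257, 1312 and 1863 counts with vehicle, 2101, 2191 and 2148 with rhWnt3a and 3931, 4253 and 3572 with rhWnt3aOSMI. The 3 groups step up without overlap, at 0.52, not called, and 1.38 (SE 0.14, adjusted p 0.000278), and by 0.86 between them (adjusted p 0.0108). Abcc1, which exports glutathione conjugates, had 1637, 1676 and 1514 counts, then 2365, 1394 and 2279, then 4954, 4595 and 4740. Its vehicle and rhWnt3a groups overlap and the combined treatment is above both, at 1.52 from vehicle (adjusted p 0.00133) and 1.22 from rhWnt3a. Of 21 members 8 were near vehicle with OSMI, 1 was called lower and 9 were called higher, 8 of them among the 16 antioxidant and detoxifying genes, and 2 without it (1 without vehicle 1 or 2, rhWnt3a 1 or 3, or rhWnt3aOSMI 1 or 2), at medians of 0.56 and 0.13. Against rhWnt3a 7 were higher, 4 without rhWnt3a 3. With single libraries left out, the first count was 8 to 11, and in the closest pairs it was 13 at a median of 0.82. Gclm, Srxn1, Txnrd1 and the cystine carrier Slc7a11 were among the calls, at 1.32, 1.34, 1.27 and 1.13.

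Members of the same list differed. The summed level of the list was 2647, 2992 and 3644 CPM with vehicle and 5690, 5607 and 3649 with rhWnt3aOSMI. Only rhWnt3aOSMI 3 came close to the vehicle libraries, at the level of vehicle 3. Hmox1, which breaks down haem, was at 589, 724 and 986 CPM with vehicle, 474, 574 and 480 with rhWnt3a and 1694, 1755 and 840 with rhWnt3aOSMI. Nqo1, a quinone reductase, was at 24.9, 24.1 and 23.7, then 12.9, 19.3 and 14.3, then 45.7, 54.5 and 15. In both genes rhWnt3aOSMI 3 lies well below its group and reaches the vehicle range or below it, and neither was called against vehicle in all libraries (0.90 and 0.67). The closest pairs gave 1.35 and 0.99, but they leave out this library, so they are no support for a rise. Gstm1, a glutathione transferase, returned: it had 1255, 1239 and 1432 counts, then 684, 830 and 630, then 1380, 1509 and 1196, at −0.90 with rhWnt3a and 0.02 with rhWnt3aOSMI, although Gstm2-ps1 shares 51% of its transcript. Tkt, an enzyme of the pentose phosphate pathway, was the member called lower, at −0.53, except without vehicle 2, rhWnt3a 1 or rhWnt3aOSMI 2. The antioxidant response core TGACTCAGC was found in the promoter of 1 of 16 members in the reference, Prdx1 (6.25%), beside 0.426% of 27025 genes.

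**Figure D4:**
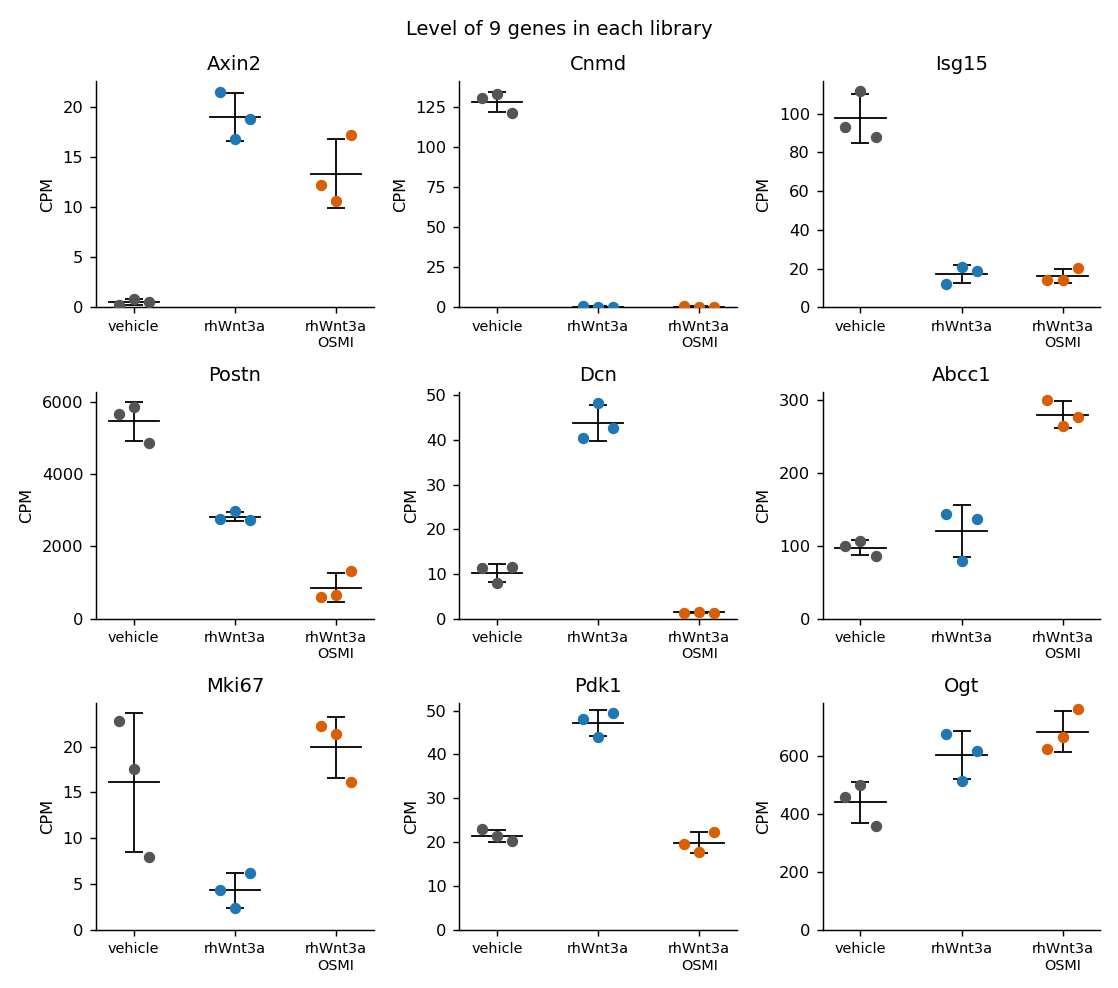
CPM of 9 genes in each library of the 3 groups, with the mean and SD (n = 3). Axin2, Cnmd and Isg15 stay away from vehicle, Postn and Dcn fall below both other groups, and Abcc1 rises with rhWnt3aOSMI. Pdk1 lies back at vehicle. Mki67 overlaps the vehicle libraries, but its interval is too wide to be called near vehicle. Ogt is at 440 CPM with vehicle and 684 with rhWnt3aOSMI.

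Mitosis genes returned toward vehicle. Mki67, a protein that coats mitotic chromosomes and marks dividing cells, had 374, 276 and 140 counts with vehicle, 72, 41 and 103 with rhWnt3a and 369, 373 and 277 with rhWnt3aOSMI. The rhWnt3a libraries lie below all others, and the rhWnt3aOSMI libraries lie inside the vehicle range. The log2 fold change was −1.91 (adjusted p 0.0176) with rhWnt3a, 0.31 with rhWnt3aOSMI with an interval of −0.55 to 1.17, and 2.22 between them (adjusted p 0.0177). Kif2c, a kinesin that takes down microtubules at the kinetochore, had 52, 41 and 52 counts, then 10, 18 and 14, then 57, 54 and 22. It shows the same shape, at −1.81 and −0.16, with rhWnt3aOSMI 3 the low library of its group. Of 33 members, all tested, edgeR called 0 against vehicle with OSMI, 2 had an unadjusted p below 0.05 and passed the fold threshold, and DESeq2 called 0. With rhWnt3a 15 were called lower, and against rhWnt3a 17 were called higher with OSMI. The medians were −1.27 with rhWnt3a and 0.26 with rhWnt3aOSMI.

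How complete this return is depended on the libraries. For 16 of the 33 genes the interval lay near vehicle in the sense given above, a smaller share than the 57.6% over all genes, so for the others a change of that size remains possible. In the closest pairs 10 members were called higher than vehicle, at a list median of 0.40, with Ccnb1, a cyclin of mitotic entry, at 0.97 and the kinase gene Nek2 at 1.18, and without rhWnt3aOSMI 3 alone 7 were. The fall with rhWnt3a was called for 3 members without vehicle 1, 6 without vehicle 2, 4, 9 and 5 without rhWnt3a 1, 2 and 3 in turn and 24 without rhWnt3aOSMI 3, and 29 in the closest pairs. The rise from rhWnt3a to rhWnt3aOSMI was called for 10 without vehicle 1 or 2, 7, 6 and 5 without rhWnt3a 1, 2 and 3, 6 without rhWnt3aOSMI 1 or 2, 28 without rhWnt3aOSMI 3 and 32 in the closest pairs. The fall and the rise share the rhWnt3a libraries, so they are not separate evidence. DNA replication did not share this pattern: of 31 tested members 1 was called with OSMI, Lig1, a DNA ligase, lower at −0.76 (not without vehicle 1, vehicle 2 or rhWnt3aOSMI 1), and 4 were higher with rhWnt3a, 2 without vehicle 1, rhWnt3a 1 or rhWnt3a 3 and 1 without vehicle 2.

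The promoters of Mki67 and Kif2c are printed because these genes moved together with their list. The capitals mark CCAAT and TTTGAA, an element pair known from genes of late cell cycle phases, on either strand. The windows end at the gene start on the minus strand of GRCm38.p6 and are chr7:135716380-135716629 for Mki67 and chr4:117178773-117179022 for Kif2c, whose only start in the promoter reference lies inside the longest span of the gene. In Mki67 CCAAT begins 188, 166 and 141 bases and TTTGAA 116 and 98 bases before the start, and in Kif2c TTTGAA begins 103 bases before it.
Mki67: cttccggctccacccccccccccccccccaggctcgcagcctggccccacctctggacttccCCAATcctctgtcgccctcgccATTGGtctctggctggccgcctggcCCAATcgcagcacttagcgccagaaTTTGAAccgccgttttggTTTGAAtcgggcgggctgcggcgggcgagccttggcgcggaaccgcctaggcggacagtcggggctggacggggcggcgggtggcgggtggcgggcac
Kif2c: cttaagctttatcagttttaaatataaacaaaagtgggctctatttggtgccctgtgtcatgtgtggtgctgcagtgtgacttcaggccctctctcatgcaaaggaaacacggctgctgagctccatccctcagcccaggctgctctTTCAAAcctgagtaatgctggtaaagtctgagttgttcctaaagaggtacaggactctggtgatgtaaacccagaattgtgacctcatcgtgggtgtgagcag
Of 27 members with a promoter in the reference 20 held CCAAT (74.1%, beside 37.5% of 27025 genes) and 10 held TTTGAA (37%, beside 18.3%).

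Some genes of glycolysis also stood back at vehicle. Pdk1, the kinase that keeps pyruvate out of the mitochondrial cycle, had 375, 336 and 357 counts with vehicle, 793, 774 and 827 with rhWnt3a and 323, 310 and 384 with rhWnt3aOSMI. The rhWnt3a libraries are above all others, and the outer groups overlap. The log2 fold change was 1.14 (adjusted p 0.000556) with rhWnt3a and −0.11 with OSMI, with an interval of −0.41 to 0.18, and −1.25 between them (adjusted p 0.00171). Pgk1, a kinase of the lower pathway, had 6248, 6186 and 9538 counts, then 12742, 16718 and 13387, then 6319, 5968 and 4036. Here too rhWnt3a stands alone and the others overlap, at 0.94 and −0.45. Ldha, which makes lactate, was at 0.82, not called, and −0.44, with −1.26 between them (adjusted p 0.0219), and Eno1, an enolase, at 0.60 and −0.24, neither called. Copies of Pgk1 (3 genes, 68.8% of its transcript) and of Eno1 (2 genes, 85.6%) may share reads with them. Of 23 enzymes and carriers 6 were called higher with rhWnt3a and 1 with rhWnt3aOSMI, at medians of 0.53 and −0.24, and 11 lay near vehicle with rhWnt3a (64.4% of all genes did) and 15 with OSMI (57.6%). The 6 became 3 without vehicle 1 or vehicle 2, and 11 in the closest pairs. The count of 1 became 2 without rhWnt3a 2 or rhWnt3aOSMI 3 and 0 without vehicle 1, vehicle 2 or rhWnt3a 3. It does not follow a single gene: Hk2, the member called in all libraries, was not called without rhWnt3aOSMI 3. Against rhWnt3a 6 were called lower with OSMI, 11 in the closest pairs but 2 without any single rhWnt3a library, rhWnt3aOSMI 1 or rhWnt3aOSMI 2.

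Other members lay away from vehicle with OSMI. Hk2, the hexokinase that traps glucose, had 1235, 1303 and 1462 counts, then 2240, 1820 and 2250, then 1981, 1685 and 2252, and its treated groups overlap each other and lie above vehicle. Its call with OSMI, at 0.53 with an adjusted p of 0.0469, was lost without vehicle 1, 2 or 3, rhWnt3a 3, rhWnt3aOSMI 1 or rhWnt3aOSMI 3. Pfkfb3, which makes the activator of phosphofructokinase, was below vehicle in both, with 688, 631 and 576 counts, then 381, 244 and 355, then 236, 208 and 285, at −0.98 and −1.42 (adjusted p 0.00195). Ldhb, the lactate dehydrogenase subunit of oxidative tissues, was lower with OSMI, at −1.07, and 76.8% of its transcript is shared with Gm5514. These and Aldoc and Eno3 are the 4 called lower with OSMI, 2 without vehicle 1 or without rhWnt3aOSMI 1, and 7 members were in the closest pairs. The 4 are 17.4% of the list, beside 9.34% of all genes.

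Some targets of hypoxia-inducible factor outside glycolysis had the same shape. Higd1a, a mitochondrial protein induced by low oxygen, had 242, 231 and 376 counts, then 517, 834 and 499, then 217, 245 and 147. Bnip3, which marks mitochondria for removal, had 603, 501 and 735, then 1052, 1373 and 1032, then 438, 484 and 390. In both genes rhWnt3a is above all other libraries, and near copies cover 43.5% and 94.2% of their transcripts. Higd1a was not called against vehicle with OSMI (−0.51), and the call of Bnip3 (−0.52, adjusted p 0.0469) was lost without any one of the 9 libraries. Ankrd37, an ankyrin repeat protein, went below vehicle, with 15, 13 and 27 counts, then 28, 28 and 32, then 5, 7 and 5, at −1.70 (adjusted p 0.0145), a call that ended without rhWnt3aOSMI 1. Of 17 tested members 11 lay near vehicle with rhWnt3a (64.4% of all genes did) and 12 with OSMI (57.6%), 4 were higher with rhWnt3a (1 without vehicle 1, 2 without vehicle 2, rhWnt3a 2 or rhWnt3a 3) and 7 were lower in rhWnt3aOSMI than in rhWnt3a (4 without rhWnt3a 2 or rhWnt3aOSMI 1, 3 without rhWnt3a 3 or rhWnt3aOSMI 2).

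Some enzymes that attach, remove or make the O-GlcNAc sugar changed in RNA level. Ogt, the transferase, had 7526, 7857 and 6367 counts with vehicle, 11123, 9052 and 10355 with rhWnt3a and 10340, 11629 and 13091 with rhWnt3aOSMI. The treated groups overlap and lie above vehicle. The log2 fold change with OSMI was 0.64 (adjusted p 0.0348), not called without vehicle 1, vehicle 3, rhWnt3a 3 or any single rhWnt3aOSMI library, nor in the closest pairs at 0.39. Mgea5, which encodes the enzyme that takes the sugar off, had 1882, 2049 and 2989 counts, then 2932, 3071 and 2895, then 4315, 4258 and 4639. Its rhWnt3aOSMI libraries are above all others, at 0.90 (adjusted p 0.00356) from vehicle and 0.56 from rhWnt3a, which was not called. Of the hexosamine pathway Gfpt1, the entry enzyme, was near vehicle at −0.10 with an interval of −0.50 to 0.29, and the deaminase Gnpda1 and the deacetylase Amdhd2 were lower at −0.83 and −0.82, and Gm8615 shares 47.4% of the transcript of Gnpda1. The activity of the transferase is not measured by RNA.

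For the remaining metabolic and stress lists the share of members near vehicle can be set beside the 57.6% of all genes, and for the respiratory chain, p53 targets and lysosome genes it was much the same. In the tricarboxylic acid cycle 18 of 22 members were near vehicle, with Pcx, pyruvate carboxylase, higher at 1.32 and Idh2, an isocitrate dehydrogenase, lower at −1.15. In the respiratory chain 22 of 39 were near vehicle and 1 was called, mt-Nd4l at 1.13 (Gm10222 shares 99% of its transcript), a call lost without any single library but rhWnt3a 2, while 4 were called higher in the closest pairs. Among targets of ATF4, the factor of the amino acid response, 19 of 22 were near vehicle and Psat1, of serine synthesis, was called at 0.81 except without vehicle 1 or 2 or rhWnt3aOSMI 1 or 2, beside 4 members called higher in the closest pairs. Among 20 chaperones of the endoplasmic reticulum 14 were near vehicle. Hyou1, a chaperone induced by low oxygen, was called higher at 0.87 (2 members without vehicle 3, 7 in the closest pairs), and P4hb, protein disulfide isomerase, which also serves in collagen hydroxylation, went from 0.55 with rhWnt3a to −0.90 with OSMI. Of 16 tested p53 targets and inhibitors of the cell cycle kinases 9 were near vehicle, 2 were higher and 3 lower with OSMI, and 4 were higher without rhWnt3aOSMI 3. Of 22 lysosome and autophagy genes 13 were near vehicle, 5 were lower, 2 without vehicle 2 or 3 and 3 without any single rhWnt3aOSMI library, and 1 was higher (2 without vehicle 3 or rhWnt3a 1, 3 without rhWnt3aOSMI 3), Ctsb, cathepsin B, at 0.93 after 1.23. Of 9 tested complement genes 3 were lower with OSMI, 1 without vehicle 2, rhWnt3aOSMI 1 or rhWnt3aOSMI 2 and 5 without rhWnt3aOSMI 3. Beside the counts in these lists, 9.34% of all tested genes were called lower with OSMI and 4.84% higher.

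A complement gene kept part of its fall. C3, the central component, had 59895, 64148 and 50500 counts with vehicle, 14684, 8956 and 14634 with rhWnt3a and 27421, 27002 and 38567 with rhWnt3aOSMI. Its groups are separate, with the combined treatment in between, and it was higher than in rhWnt3a by 1.26 (adjusted p 0.0255), a call lost without any single rhWnt3a library, rhWnt3aOSMI 1 or rhWnt3aOSMI 2. Its fall from vehicle of −0.96 was not called without vehicle 1 or 2 or rhWnt3aOSMI 1 or 2. Ribosomal protein genes cannot be read here: their median with OSMI was −0.68 in all libraries and −0.24 in the closest pairs, and edgeR called 0 of 28, with 4 lower at an unadjusted p below 0.05, 2 by DESeq2 and 13 with no filter on low counts.

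Several of the largest changes by fold were shared with rhWnt3a. Among the rises, Spry1, an inhibitor of growth factor signalling, had 75, 108 and 248 counts with vehicle, 1692, 1935 and 1618 with rhWnt3a and 1067, 1081 and 1502 with rhWnt3aOSMI, at 3.60 and 3.07 (adjusted p 0.000435). Ahr, the receptor for aryl hydrocarbons, had 86, 131 and 184, then 1401, 1244 and 1378, then 1136, 986 and 1292, at 3.31 and 3.06. Nrg1, a ligand of ErbB receptors, had 185, 183 and 175, then 894, 676 and 816, then 1150, 1168 and 1725, and stood highest with OSMI, at 2.11 and 2.85. In each of these genes both treated groups lie above every vehicle library. The antisense gene Gm42922 overlaps 24.4% of the exon bases of Spry1.

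Among the falls some deepened with OSMI. Agtr2, the type 2 receptor of angiotensin, had 907, 746 and 885 counts with vehicle, 28, 47 and 54 with rhWnt3a and 3, 9 and 13 with rhWnt3aOSMI. Its groups step down without overlap, at −4.33 and −6.69 (adjusted p 6.94e-06), and by −2.36 between them (adjusted p 0.00955). Ptgds, which makes prostaglandin D, had 228, 251 and 306 counts, then 9, 21 and 15, then 1, 1 and 4, with −2.84 between the treated groups (adjusted p 0.0141). Apod, an apolipoprotein, had 2008, 2425 and 2141, then 33, 111 and 59, then 15, 25 and 36, and its treated groups overlap. Tyrp1, an enzyme of melanin synthesis, had 465, 463 and 423 counts with vehicle, then 0, 0 and 1, then 0, 0 and 2. It fell by 694-fold with OSMI, with a counting interval of 192 to 5737, and both treated groups are at or under the floor.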

How the data were processed

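The authors deposited 1 table of 54532 genes with counts per gene, not normalized, for 9 libraries of ST2 cells, 3 in each of 3 groups. By the processing notes in the labels, reads went through CASAVA, fastp, HISAT2 2.0.5 and featureCounts 1.5.0-p3 on mm10. The annotation release and the strand setting are not given in the sources used here. FPKM values, scaled by the authors to gene length and library size, serve only to compare levels between genes. Log2 fold changes and p-values in the deposited table were not used.

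Counts of all 9 libraries were fitted with edgeR 4.0.16 in R 4.3.3 (filterByExpr at its minimum count of 10, TMM scaling, quasi-likelihood test, two-sided), which left 14004 genes. Adjusted p-values are Benjamini-Hochberg values over these genes, and intervals (95%) come from the standard error of the fit. CPM uses TMM-scaled library sizes. The scripts were tested on simulated counts. An exact permutation test of 3 against 3 libraries cannot give a p below 0.1, so none was run. Alternatives were other scaling, no filter, DESeq2 1.42.0, a replicate block, libraries left out, and corrections for gene length and GC. Shared sequence was found with BLAST 2.17.0 (97% identity over 100 bases) on GENCODE M21, and promoters came from RefSeq.

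Genes were named by rule: the 12 largest rises and falls among called genes with separate groups and an average log2 CPM above 1, the 3 members of each list with the largest called changes against vehicle, the 2 with the largest called changes under rhWnt3a, 13 genes of the O-GlcNAc, glycolysis, Wnt and lineage programs, and the most abundant member of each list without a call. Other list members appear as examples chosen after their values were seen. The members and the lists were chosen with earlier results of these data known.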

Additional observations from a re-analysis of the deposited data

How the results depend on the processing

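Of 134 genes named by rule, 109 were called with the combined treatment against vehicle. All 109 kept their direction in each of 20 alternatives, 74 were called in each, 26 lost the call when some single library was left out, and 105 kept it in the closest pairs of libraries. Of the 25 not called, 8 were called under some alternative.

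Calls between rhWnt3aOSMI and vehicle ranged from 1218 to 2328 with single libraries left out, beside 1986. They were 1297 with replicate number as a block, 3351 in the closest pairs, 3186 with unadjusted p and 1118 beyond a log2 fold change of 1. Calls between rhWnt3a and vehicle ranged from 716 to 1506 with single libraries left out, beside 1230, and were 809 with the block, 2557 in the closest pairs, 2001 with the gene length profile as a covariate, 2155 with unadjusted p and 796 beyond 1. Calls between rhWnt3aOSMI and rhWnt3a ranged from 203 to 764, beside 664, and were 1481 with no filter, 1236 with DESeq2, 233 with the block, 1789 in the closest pairs, 1133 with trends on gene length and GC removed, 1391 with the length covariate, 2271 with unadjusted p and 380 beyond 1. The covariate was chosen after seeing the data. Libraries of the same number gave r across genes of −0.32, −0.20 and −0.41 for vehicle and rhWnt3aOSMI, 0.44, −0.49 and −0.49 for vehicle and rhWnt3a, and −0.31, 0.37 and 0.33 for rhWnt3a and rhWnt3aOSMI, so the numbers used in the block did not move together throughout.

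The fit without the 3 libraries that lay apart estimated a common dispersion of 0.00357, beside 0.0452 with all 9. Removing the furthest library of each group makes this spread small by selection, so the p-values of that fit are too small. The cause of the other shifts was not tested. Fits that leave out a library assume that a group of 2 varies like the others.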

Other observations

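Among the genes called between rhWnt3aOSMI and vehicle, 624 of the 678 rises and 1242 of the 1308 falls were protein-coding, from 11924 protein-coding genes tested. Of 631 processed pseudogenes 1 was higher and 15 were lower. Of 320 lincRNA genes 11 were higher and 16 lower, and Gm26682, the lincRNA with the largest rise, had 3, 0 and 3 counts with vehicle, 60, 76 and 53 with rhWnt3a and 45, 68 and 62 with rhWnt3aOSMI, a ratio to vehicle of 28.4 with a counting interval of 12.8 to 78.4.

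Some genes on the marker lists of other cells changed although the defining markers of those cells were at or near 0. Tnnt3, a troponin, had 42, 39 and 26 counts with vehicle, 5, 3 and 1 with rhWnt3a and 0, 1 and 2 with rhWnt3aOSMI. The 7 muscle markers summed to 3.29, 4.46 and 3.79 CPM with vehicle and 0.242, 0.401 and 0.291 with rhWnt3aOSMI, with 5 of them at 3 counts or fewer in each library. Their part in other results was not tested.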
